A study of Mus musculus with 10 samples.

Results

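Airway mucus is held together by gel-forming mucins, and 9 genes of the cells that make it were followed here in mouse lung. They are the gel-forming mucin genes Muc5b and Muc5ac, the secreted goblet cell products Clca1, Tff2, Fcgbp and Scgb3a1, the mucin folding gene Agr2, and the transcription factor genes Spdef and Foxa3. They were chosen by symbol and found by identifier, as 9 of the 47333 gene rows of the count table. The lungs (right middle lobe) came from naïve C57BL/6J mice at 12 weeks of age, in a study of what changes in gene expression when the gene Bpifb1 is lost. Of the 10 mice, 5 were labelled KO for Bpifb1 (1 male and 4 females) and 5 WT (2 males and 3 females). All were on the same strain background, and mice of both genotypes shared cages. How the KO allele was built is not given in the sources used here. Each library is taken as 1 mouse, and the p-values below measure the spread between these libraries.

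Gel-forming mucins are very large glycoproteins that are folded and linked in the endoplasmic reticulum, heavily O-glycosylated in the Golgi, packed dry into granules and released by exocytosis, after which they swell into a gel. In the mouse, Muc5b is the mucin made by airway secretory cells at rest, whereas Muc5ac is made in quantity when type 2 cytokines such as interleukin 13 turn club cells into goblet cells. Spdef and Foxa3 are transcription factors that drive this conversion. The product of Bpifb1 is itself secreted into the airway surface fluid.

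The labels were checked first. Bpifb1 stood at 0.217 to 1.26 CPM (a gene's counts scaled to a fixed library total) in KO mice, from 5 to 32 counts, and at 28.1 to 79.5 CPM in WT mice, from 647 to 2059 counts. Its log2 fold change of KO minus WT was -6.55 (SE 0.55, adjusted p 0.0275 by edgeR's quasi-likelihood test). In 1 library Xist was unlike that of the other females, while its Y-linked genes went with its label. KO replicate 5, labelled female, had 1.78 CPM of Xist, the RNA that silences the second X chromosome, where the other 6 females had 273 to 407 CPM and the 3 males 1.29 to 1.73 CPM. It had 0 counts over 4 Y-linked genes, of which the males had 2470 to 3441. This library is the same one that was highest for several of the genes below, so the results are given with and without it. Library totals ran from 21357424 to 28321294 estimated counts.

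The genes lie on 5 chromosomes (GRCm38, GENCODE M21). Muc5ac (chromosome 7, 141788972 to 141819231, plus strand) and Muc5b (chromosome 7, 141839070 to 141873084, plus strand) are neighbours, separated by 19838 bases, in a cluster that also holds Muc6 and Muc2. Fcgbp (28071236 to 28120862, plus strand) and Foxa3 (19013284 to 19023538, minus strand) are on the same chromosome outside that cluster. Clca1 is on chromosome 3 (145003817 to 145032776, minus strand). Tff2 (31141049 to 31144282, minus strand) and Spdef (27714352 to 27728955, minus strand) are on chromosome 17. Scgb3a1 is on chromosome 11 (49663610 to 49665118, plus strand) and Agr2 on chromosome 12 (35992907 to 36004087, plus strand). Each interval is the whole annotated gene, and the counts cover its exons as the authors assigned them.

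Promoter sequences from RefSeq (GRCm38.p6), covering 250 bases before to 50 after the start, were matched for 5 of the 9 genes (Foxa3, Fcgbp, Scgb3a1, Agr2 and Spdef). They were searched on both strands for 7 motifs chosen after these sequences had been seen: TATAAA (a core promoter element), TGTTTAC and TATTTAC (forkhead), TCAAGTG (NKX2), TGACGTG (ATF6 and XBP1 type), CCGGAT (SPDEF type) and the palindromic STAT6 site. Over 32544 promoters of this length the shares holding them were 13.6%, 3.66%, 3.04%, 2.98%, 2.02%, 6.08% and 6.98%, in that order. Foxa3 held TATAAA 36 to 31 bases before its start, and Fcgbp and Agr2 held none of the 7. The promoters of Spdef, the factor that drives goblet cell differentiation, and of Scgb3a1, the most abundant of the 9 transcripts, are printed because they held the motifs of 7 bases. Both are written 5′ to 3′ on the strand of the gene, with the matches in capitals, and no matches overlapped. For Spdef (chr17:27728902-27729201, minus strand) the capitals mark TGACGTG at 201 to 195 bases before the start and GTAAATA, the reverse complement of TATTTAC, at 47 to 41. For Scgb3a1 (chr11:49663345-49663644, plus strand) they mark CACTTGA, the reverse complement of TCAAGTG, at 174 to 168 bases before the start.
Spdef: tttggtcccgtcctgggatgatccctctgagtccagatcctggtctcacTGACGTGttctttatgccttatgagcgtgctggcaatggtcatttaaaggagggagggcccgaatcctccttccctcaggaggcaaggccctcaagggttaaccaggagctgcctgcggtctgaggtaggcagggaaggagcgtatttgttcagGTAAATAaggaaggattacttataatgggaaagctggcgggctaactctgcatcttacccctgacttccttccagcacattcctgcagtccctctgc
Scgb3a1: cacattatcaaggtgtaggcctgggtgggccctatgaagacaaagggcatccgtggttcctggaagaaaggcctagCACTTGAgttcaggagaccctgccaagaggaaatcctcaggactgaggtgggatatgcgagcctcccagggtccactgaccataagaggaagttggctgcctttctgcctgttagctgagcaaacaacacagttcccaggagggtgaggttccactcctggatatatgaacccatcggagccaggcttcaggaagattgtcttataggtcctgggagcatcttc

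Between the genotypes, none of these genes passed the test. Of the 8 that had enough counts to be tested (Foxa3 did not), edgeR's test called 0 (quasi-likelihood, Benjamini-Hochberg over 18024 genes, adjusted p under 0.05), and of those 18024 genes it called 0.0222%. DESeq2's Wald test and limma-voom also called 0 of the 8. At an unadjusted p under 0.05, 1 of the 8 (Clca1) was higher in KO and 0 were lower, where 17% of tested genes were past that threshold, 8.92% higher and 8.04% lower. The median log2 fold change of the 8 was 0.13, and that of the 18024 tested genes was -0.003. The CPM ranges of the 2 genotypes overlapped in each of the 9 genes, and 1.88% of tested genes had ranges that did not. In a piece of whole lung, fewer cells of a type and less RNA per cell cannot be told apart.

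**Figure D1:**
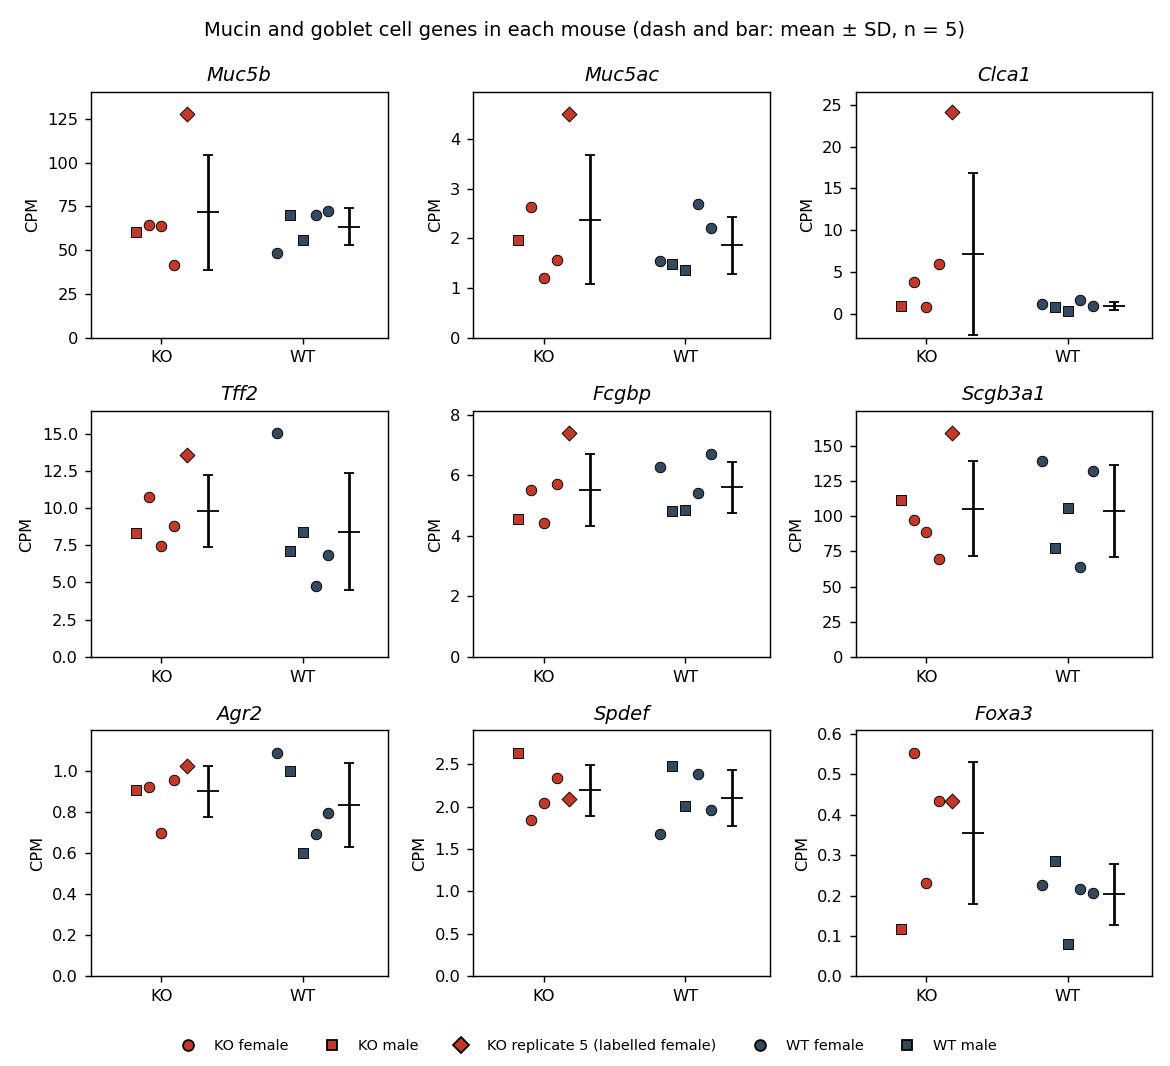
CPM of the 9 genes in each mouse (1 point per mouse, squares for males, circles for females, a diamond for KO replicate 5), with the mean and SD of each genotype beside the points (n = 5). In Muc5b, Muc5ac, Clca1, Fcgbp and Scgb3a1 the diamond is the highest of the 10 points, and in each panel the KO and WT points overlap.

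Muc5b, the mucin of the resting airway, had 60.6, 64.3, 63.7, 41.7 and 128 CPM in KO replicates 1 to 5 and 48.7, 70.4, 56.1, 69.9 and 72.7 CPM in WT replicates 1 to 5. The first 3 KO mice lay among the WT mice, KO replicate 4 lay below them, and KO replicate 5 lay above, at 2.01 times the median of the other 9 mice. Means were 71.6 ± 32.8 CPM in KO and 63.5 ± 10.6 CPM in WT (SD, n = 5 each). The log2 fold change was 0.14 (SE 0.31, 95% interval -0.59 to 0.88, edgeR adjusted p 0.857). Leaving out KO replicate 5 gave -0.14 (SE 0.17, 95% interval -0.53 to 0.25, edgeR adjusted p 0.749), so that the sign of the difference turned on that mouse.

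Muc5ac, the inducible mucin, was scarce. KO replicates 1 to 5 had 1.97, 2.62, 1.21, 1.56 and 4.50 CPM, and WT replicates 1 to 5 had 1.54, 1.48, 1.36, 2.69 and 2.21 CPM. KO replicate 5 was again the highest, at 2.88 times the median of the other mice, and KO replicate 3 was the lowest. The means were 2.37 ± 1.30 CPM in KO and 1.86 ± 0.571 CPM in WT (SD, n = 5 each). The fitted difference was 0.28 on the log2 scale (SE 0.32, 95% interval -0.43 to 0.99, edgeR adjusted p 0.701) and -0.027 (SE 0.26) when KO replicate 5 was left out.

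Muc5b exceeded Muc5ac in each of the 10 mice. Per kilobase of exon, the ratio of their levels ran from 17.6 in KO replicate 2 to 37.9 in KO replicate 3. It averaged 23.5 ± 8.23 in KO and 25.8 ± 6.15 in WT mice (SD, n = 5 each; exact permutation p 0.6508, two-sided). In KO replicate 5, the mouse with the most of both mucins, the ratio was 20.4, inside the range of the others.

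Clca1, a secreted metalloprotease of goblet cells and a common marker of mucous metaplasia, varied most. Its levels were 0.983, 3.803, 0.882, 6.03 and 24.2 CPM in KO replicates 1 to 5 (19 to 612 counts) and 1.13, 0.857, 0.321, 1.69 and 0.966 CPM in WT replicates 1 to 5 (8 to 39 counts). KO replicates 2, 4 and 5 lay above the highest WT mouse, while KO replicates 1 and 3 lay inside the WT range. The means were 7.17 ± 9.73 CPM in KO and 0.994 ± 0.495 CPM in WT (SD, n = 5 each). By edgeR the log2 fold change was 2.45 (SE 1.01, 95% interval 0.07 to 4.82), with an unadjusted p of 0.0449 and an adjusted p of 0.284. The exact permutation p of the means was 0.0952 (two-sided), in a design whose smallest possible p is 0.0079. Without KO replicate 5 the KO mean was 2.92 ± 2.47 CPM (SD, n = 4) and the log2 fold change 1.34 (SE 0.53, 95% interval 0.14 to 2.55, edgeR unadjusted p 0.033, adjusted p 0.346). Over 18 alternatives the log2 fold change stayed between 1.27 and 2.86 and the adjusted p between 0.123 and 0.558.

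In the other 3 secreted products at most 1 KO mouse lay above the highest WT mouse. Tff2, a trefoil peptide packed with mucins, had 8.34, 10.7, 7.48, 8.80 and 13.6 CPM in KO replicates 1 to 5 and 15.01, 7.09, 8.39, 4.73 and 6.83 CPM in WT replicates 1 to 5. Its highest and lowest values were both in WT mice (replicates 1 and 4), and its log2 fold change was 0.18 (SE 0.31, 95% interval -0.54 to 0.91, edgeR adjusted p 0.812). Fcgbp, a large mucus protein that is secreted with mucins, had 4.56, 5.50, 4.41, 5.72 and 7.38 CPM in KO replicates 1 to 5 and 6.26, 4.81, 4.86, 5.42 and 6.69 CPM in WT replicates 1 to 5. The 2 sets of values interleave, with KO replicate 5 at the top, and the log2 fold change was -0.09 (SE 0.13, 95% interval -0.36 to 0.19, edgeR adjusted p 0.77).

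Scgb3a1, a small secretoglobin of the proximal airway, had 112, 97.5, 89.0, 69.3 and 159 CPM in KO replicates 1 to 5 and 139, 77.3, 106, 64.2 and 132 CPM in WT replicates 1 to 5. The genotypes spanned nearly the same range, and their means were 105 ± 33.7 CPM in KO and 104 ± 32.9 CPM in WT (SD, n = 5 each). Its log2 fold change was 0.003 (SE 0.30, 95% interval -0.71 to 0.71, edgeR adjusted p 0.998).

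Agr2, a protein disulfide isomerase of the endoplasmic reticulum that mucin assembly needs, was near the limit of what was tested, at 15 to 26 counts per mouse. KO replicates 1 to 5 had 0.905, 0.923, 0.697, 0.954 and 1.03 CPM, and WT replicates 1 to 5 had 1.09, 0.9996, 0.602, 0.694 and 0.793 CPM. The highest and the lowest mouse were both WT. The log2 fold change was 0.11 (SE 0.23, 95% interval -0.38 to 0.60, edgeR adjusted p 0.846).

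Spdef, the ETS factor that drives goblet cell differentiation, had the smallest SD of log2 CPM of the 8 tested genes, with 2.64, 1.85, 2.04, 2.34 and 2.09 CPM in KO replicates 1 to 5 and 1.68, 2.48, 2.01, 2.39 and 1.97 CPM in WT replicates 1 to 5. KO replicate 5 ranked the fifth highest here, at 1.02 times the median of the other mice. The log2 fold change was 0.10 (SE 0.15, 95% interval -0.22 to 0.43, edgeR adjusted p 0.769).

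Foxa3, a forkhead factor that also promotes goblet cell differentiation, had only 2 to 15 counts per mouse and did not pass the filter. Its counts were 3, 15, 5, 10 and 11 in KO replicates 1 to 5 and 5, 6, 2, 5 and 6 in WT replicates 1 to 5. KO replicates 2, 4 and 5, the mice that were above the WT range for Clca1, were above it for Foxa3 too, at 0.554, 0.434 and 0.434 CPM against at most 0.286 CPM in WT. The means were 0.354 ± 0.175 CPM in KO and 0.203 ± 0.0753 CPM in WT (SD, n = 5 each; exact permutation p 0.1032, two-sided). In the fit without a filter on low counts the log2 fold change was 0.61 (SE 0.45, edgeR adjusted p 0.668). Among females alone Foxa3 passed the filter, with 0.94 (SE 0.42, edgeR unadjusted p 0.0443, adjusted p 0.353). Of those females only KO replicates 2, 4 and 5 had 10 or more counts. Foxa3 thus entered that fit through the mice in which it was high, so this p is not a fair test of the difference.

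**Figure D2:**
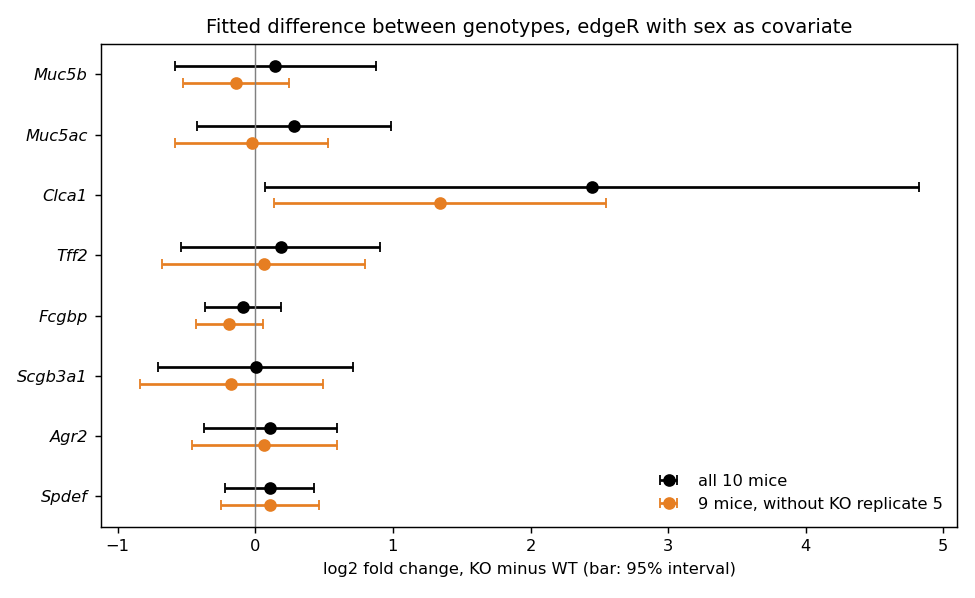
Log2 fold change of KO minus WT for the 8 tested genes from edgeR with sex as a covariate (points, with 95% intervals as bars), in all 10 mice (black) and without KO replicate 5 (orange). Clca1 has the largest estimate and the widest interval of the 8, at 2.45 and 1.34, and the points of Muc5b, Muc5ac and Scgb3a1 move from above to below 0 when KO replicate 5 is left out.

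The levels spanned 3 orders of magnitude. Per kilobase of exon the order from high to low was Scgb3a1 (174.7 ± 52.5 CPM per kilobase, SD, n = 10), Tff2 (15.6 ± 5.41), Muc5b (4.52 ± 1.56), Clca1 (1.08 ± 1.92), Spdef (0.931 ± 0.131), Agr2 (0.673 ± 0.126), Fcgbp (0.530 ± 0.0926), Muc5ac (0.197 ± 0.0916) and Foxa3 (0.137 ± 0.0737). Scgb3a1 was above Tff2, Tff2 above Muc5b, Muc5b above Clca1, and Fcgbp above Muc5ac in 10 of 10 mice. Clca1 was above Spdef in 3 of 10 mice and Muc5ac above Foxa3 in 6 of 10, so the order of these neighbours varied between mice. It was not tested. Spdef was above Agr2, and Agr2 above Fcgbp, in 9 of 10 mice each. The place of Clca1 rested on KO replicate 5. Over the other 9 mice its mean was 0.490 ± 0.492 CPM per kilobase (SD, n = 9), below Spdef (0.934 ± 0.138), Agr2 (0.659 ± 0.126) and Fcgbp (0.511 ± 0.0740) and above Muc5ac (0.172 ± 0.0511), and the order of the other 8 genes was the same.

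Variation between mice of the same genotype was wide for 5 of the genes. The SD of log2 CPM around the genotype means was 1.47 for Clca1, 0.58 for Muc5ac, 0.49 for Tff2, 0.46 for Scgb3a1 and 0.45 for Muc5b, where the median of tested genes was 0.14. These values exceeded those of 99.6%, 96.4%, 94.2%, 93.3% and 92.8% of tested genes. Agr2 (0.27), Fcgbp (0.26) and Spdef (0.205) exceeded 78.2%, 76.8% and 68.5%. Each SD includes counting error, which is larger at low counts (15 to 26 per mouse in Agr2, 37 to 67 in Spdef). The ranks of those genes therefore cannot be read as differences between mice alone. When KO replicate 5 was left out, the SD of Clca1 was 1.06, still above 99.1% of tested genes, while that of Muc5b fell to 0.27, above 79.2%. KO replicate 5 was the highest of the 10 mice in 5 of the 9 genes and the next highest in Tff2, Agr2 and Foxa3. It was the highest in 11.6% of tested genes.

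Other genes of the mucin pathway were read from the same fit. Of 69 genes in 5 lists, 58 were tested, 0 were called by edgeR, and 8 were higher and 4 lower in KO at an unadjusted p under 0.05. These 12 are 20.7% of the 58, beside 17% of all tested genes (8.92% higher and 8.04% lower). Their median log2 fold change was 0.03. CPM ranges did not overlap in 1 of the 58, a share near the 1.88% of all tested genes. It was Muc6, a gel-forming mucin best known from the stomach, with 2.32, 2.14, 2.28, 2.04 and 2.53 CPM in KO replicates 1 to 5 and 1.68, 1.48, 2.01, 1.74 and 1.41 CPM in WT replicates 1 to 5. Each KO mouse was above each WT mouse, and the log2 fold change was 0.46 (SE 0.15, edgeR unadjusted p 0.009, adjusted p 0.19). Of the other 2 gel-forming mucins, Muc19 differed by 0.14 on the log2 scale (SE 0.31, adjusted p 0.864 by edgeR), and Muc2 had 1 to 7 counts per mouse and was not tested.

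Of 18 genes of the transcription and signalling steps upstream of goblet cells, 17 were tested, and 5 were higher and 2 lower in KO at an unadjusted p under 0.05 (41.2%, beside 17% of all tested genes). The 2 with the smallest p were Jag1, a ligand of Notch receptors (log2 fold change 0.27, SE 0.07, edgeR adjusted p 0.135), and Egfr, the epidermal growth factor receptor (0.29, SE 0.08, edgeR adjusted p 0.143). Notch1 (0.33), Jag2 (0.19) and Notch2 (0.17) were the other higher genes. The 2 lower were Hes1 (-0.37, SE 0.115, edgeR adjusted p 0.184) and Foxa2 (-0.19, SE 0.07, edgeR adjusted p 0.221). Of 20 genes for mucin folding and O-glycosylation, 16 were tested, with 1 higher and 1 lower at that level (12.5%). For C1galt1, which extends O-glycans to the core 1 structure, the log2 fold change was 0.28 (SE 0.09, edgeR adjusted p 0.187), and St6galnac2, which adds sialic acid, one of -0.12 (SE 0.05, edgeR adjusted p 0.241). Of 14 genes for mucin granule exocytosis, 14 were tested, with 0 higher and 1 lower (7.14%), namely Rab3d, a granule GTPase (-0.11, SE 0.05, edgeR adjusted p 0.283). Vamp8, a SNARE of the granule membrane, followed at -0.15 (SE 0.07, edgeR adjusted p 0.312). Of 14 genes known to rise with goblet cells in allergic airways, 9 were tested, with 1 higher and 0 lower (11.1%). This was Postn, a matrix protein induced by interleukin 13 (0.24, SE 0.07, edgeR adjusted p 0.144), and the next was Gabrp (0.14, SE 0.07, edgeR adjusted p 0.31).

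Males and females were compared in the same fit. Of the 8 tested genes 0 were called by edgeR, where 0.583% of tested genes were. At an unadjusted p under 0.05, 0 of the 8 were higher and 1 was lower in males, where 15.1% of tested genes were past that threshold, 7.34% higher and 7.79% lower. That gene was Fcgbp, at 4.56 to 4.86 CPM in 3 males and 4.41 to 7.38 CPM in 7 females, and its log2 fold change, male minus female, was -0.34 (SE 0.14, edgeR unadjusted p 0.0323, adjusted p 0.282). Clca1 stood at 0.321 to 0.983 CPM in males and 0.882 to 24.2 CPM in females, with a fitted log2 difference of -2.21 (SE 1.34, edgeR adjusted p 0.495). This was -1.46 (SE 0.63, edgeR adjusted p 0.335) without KO replicate 5 and -1.12 (SE 1.89, edgeR adjusted p 0.896) without KO replicate 1, the only KO male. DESeq2's Wald test and limma-voom also called 0 of the 8 by sex. KO replicate 5 entered these fits as female, as labelled.

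Across the 10 mice most pairs of these genes had a positive correlation, though no pair passed the correction. Over the 28 pairs of the 8 tested genes, Pearson's r of log2 CPM was positive in 23, with a median of 0.39. By permutation test 6 pairs had a p under 0.05, and 0 passed the Benjamini-Hochberg adjustment over the 28, for Pearson's r or for Spearman's rho. Without KO replicate 5 the median r was 0.06, and 0 pairs had an exact permutation p under 0.05.

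**Figure D3:**
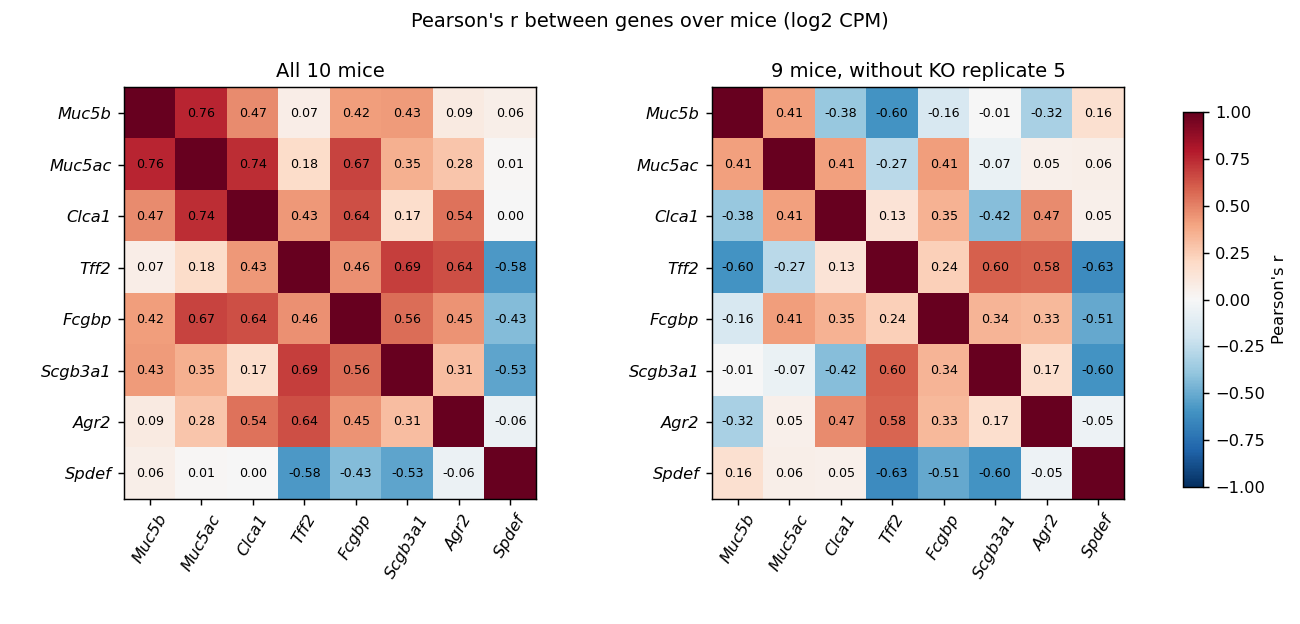
Pearson's r of log2 CPM for each pair of the 8 tested genes, over all 10 mice (left) and over 9 mice without KO replicate 5 (right), on a colour scale from -1 to 1. The left panel is mostly positive (median 0.39) and the right is mixed (median 0.06), and Spdef is negative with Tff2, Fcgbp and Scgb3a1 in both.

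The 2 airway mucins had the highest r. For Muc5b and Muc5ac it was 0.758 (permutation p 0.0148, adjusted 0.21), with a rho of 0.527 (permutation p 0.122, adjusted 0.419). It was 0.424 without KO replicates 4 and 5, the mice farthest from the median of Muc5b, and 0.409 without KO replicate 5 alone (exact permutation p 0.275), so the relation rested on KO replicate 5. Muc5ac and Clca1 had an r of 0.742 (permutation p 0.015, adjusted 0.21) and a rho of 0.758 (permutation p 0.0152, adjusted 0.419). This r was 0.424 without KO replicate 5 and WT replicate 4, 0.414 without KO replicate 5, and 0.769 with the genotype means removed (exact permutation p 0.0363, before any correction). Without KO replicate 4 it was 0.885, and this pair then passed (exact permutation p 0.00134, adjusted 0.0377). Muc5b and Clca1, by contrast, had an r of 0.47 (permutation p 0.175, adjusted 0.382), a rho of 0.067 (permutation p 0.865, adjusted 0.947) and an r of 0.24 without KO replicates 4 and 5. It was -0.381 without KO replicate 5 alone.

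The other 4 pairs past the unadjusted threshold joined secreted products to each other, to Muc5ac or to Agr2. Tff2 and Scgb3a1 had an r of 0.695 (permutation p 0.0247, adjusted 0.217; rho 0.539, permutation p 0.114, adjusted 0.419). It was 0.442 without WT replicates 1 and 4 and 0.596 without KO replicate 5. Muc5ac and Fcgbp had an r of 0.673 (permutation p 0.0321, adjusted 0.217; rho 0.612, permutation p 0.0667, adjusted 0.419), and 0.458 without KO replicate 5 and WT replicate 4. For Clca1 and Fcgbp it was 0.644 (permutation p 0.0412, adjusted 0.217; rho 0.612, permutation p 0.0667, adjusted 0.419), and 0.297 without KO replicates 4 and 5. With the genotype means removed the r of this pair was 0.85 (exact permutation p 0.00694, before any correction), and without KO replicate 5 alone 0.347. For Tff2 and Agr2 it was 0.641 (permutation p 0.0466, adjusted 0.217; rho 0.636, permutation p 0.0549, adjusted 0.419), and 0.419 without WT replicates 1 and 4. Without KO replicate 5 alone the r was 0.415 for Muc5ac and Fcgbp and 0.584 for Tff2 and Agr2. In each of these pairs the relation was weaker without the 2 mice farthest from the median of the first gene. Leaving those out narrows the range of that gene, which by itself tends to lower r. Spdef, the factor, had an r with the 4 secreted products that ran up to -0.001, with Clca1, and the farthest from 0 was -0.576, with Tff2 (permutation p 0.0811, adjusted 0.318; rho -0.467, permutation p 0.179, adjusted 0.419). Leaving out WT replicates 1 and 4 gave -0.246. Spdef rests on 37 to 67 counts per mouse and Agr2 on 15 to 26, so their values carry counting error. Its part in these r values was not tested.

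**Figure D4:**
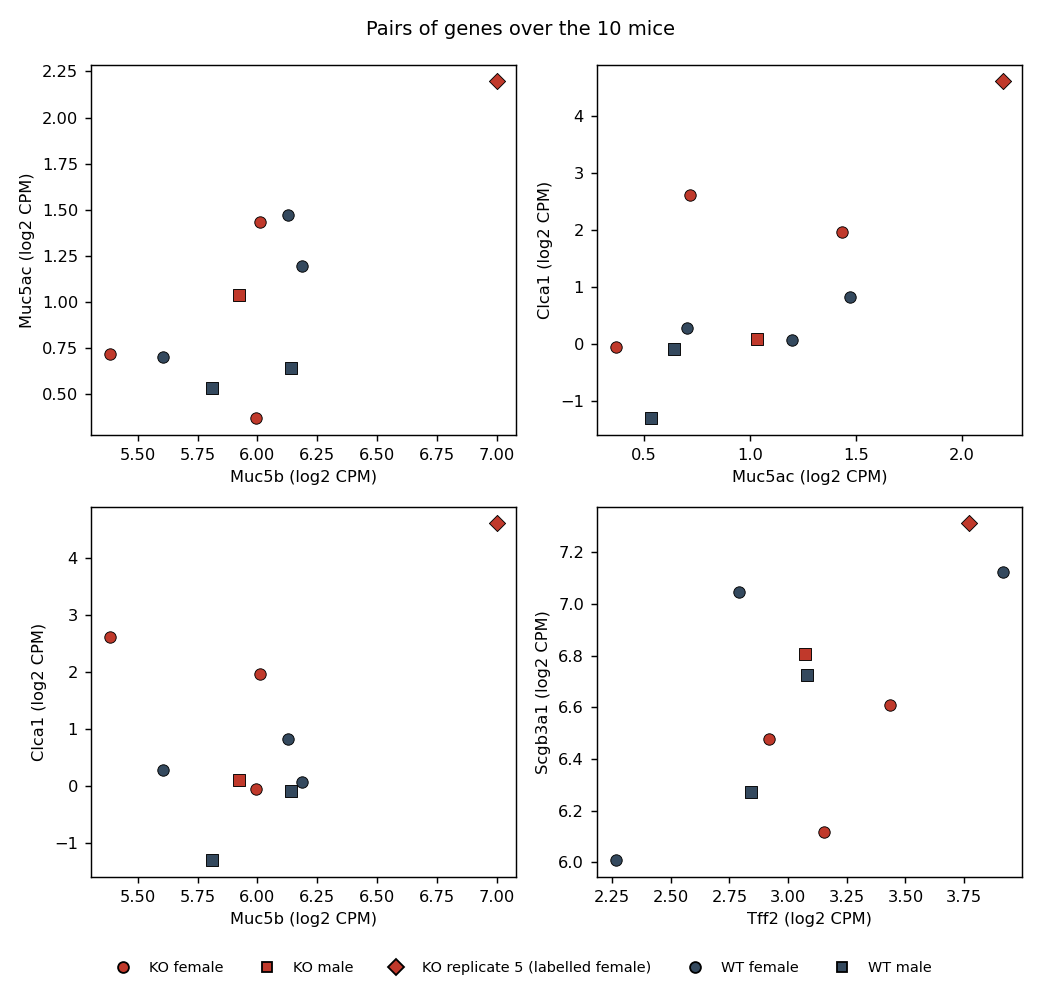
Log2 CPM of 4 pairs of genes, 1 point per mouse (squares for males, circles for females, a diamond for KO replicate 5). The diamond lies at the upper right of the Muc5b and Muc5ac, Muc5ac and Clca1, and Muc5b and Clca1 panels, where r was 0.758, 0.742 and 0.47 with it and 0.409, 0.414 and -0.381 without it.

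Foxa3 was added to the covariation after its values were seen. Over the enlarged family of 36 pairs it was closest to Clca1, with an r of 0.793 (permutation p 0.00533, adjusted 0.18) and a rho of 0.636 (permutation p 0.0554, adjusted 0.437). The r was 0.778 without KO replicate 2 and WT replicate 3, 0.857 without KO replicate 5 (exact permutation p 0.00645, before any correction) and 0.724 with the genotype means removed. Foxa3 rests on 2 to 15 counts per mouse, so each of its values carries a large counting error.

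The genes most like 4 of the 9 over the mice were taken from 16279 genes with a mean of at least 1 CPM, by Pearson's r of log2 CPM over 10 mice, as a description with no test. For Muc5b they were Ccdc88c (0.894), Amt (0.884) and Gm20342 (0.879), and for Muc5ac they were Dlec1 (0.938), Ppm1e (0.907) and Adcy5 (0.899). Clca1 was most like Dzip1l (0.956) and Deup1 (0.896), and Scgb3a1 most like Amy1 (0.967), Rbm20 (0.931) and Tub (0.929). Without KO replicate 5 the r of these genes ran from 0.667 (Ccdc88c) to 0.959 (Amy1). None of the 9 genes was among the 3 most like any of these 4, though Agr2 and Foxa3, with means below 1 CPM, were not candidates.

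Markers of other airway cell types were set beside these genes. Cartilage surrounds only the large airways. Its 6 markers summed to 84 counts in KO replicate 5 and 50 in WT replicate 3, against 6 to 16 counts in the other 8 mice. Acan, the core proteoglycan of cartilage, had 26 counts in KO replicate 5, 9 in WT replicate 3 and 0 in the other 8. The 4 basal cell markers summed to 132 counts in KO replicate 5 and 137 in WT replicate 3, but also to 134 in WT replicate 5, against 48 to 78 in the other 7 mice. The 2 mice with cartilage counts did not share their mucin levels. KO replicate 5 had 128 CPM of Muc5b and 24.2 CPM of Clca1, while WT replicate 3 had 56.1 CPM of Muc5b and, at 0.321 CPM, the lowest Clca1 of the 10. The part of large airway in the values of KO replicate 5 was not tested.

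In summed CPM, the 6 ciliated cell markers ran from 606 to 726 in KO and 609 to 696 in WT, and the 4 club cell markers from 28050 to 31600 in KO and 29110 to 37060 in WT. The 4 basal cell markers ran from 2.66 to 5.21 in KO and 2.29 to 5.50 in WT, the 7 submucosal gland markers from 11.5 to 21.9 and 12.4 to 19.7, and the 6 cartilage markers from 0.472 to 3.31 and 0.272 to 2.01. The ranges overlapped for each list. Exact permutation p (two-sided, adjusted over 6 lists) was 0.2856 for club cells (0.0476 unadjusted) and 0.9921 for the others. The gland sum was almost wholly Ltf, with Bpifb9b, Dcpp1 and Dcpp2 at 0 in the 10 mice. Among single markers, the log2 fold change was 0.23 for Foxj1, the master factor of motile cilia (SE 0.07, adjusted p 0.152 by edgeR), and 0.24 for Dnah5, a ciliary dynein (SE 0.09, adjusted p 0.226). The other 4 ciliated markers lay between -0.08 (Dynlrb2) and 0.18 (Ccdc39). The value was -0.25 for Cbr2, a club cell carbonyl reductase (SE 0.08, adjusted p 0.192 by edgeR), and -0.16 for Scgb3a2, a club cell secretoglobin (SE 0.09, adjusted p 0.403). The basal markers Ngfr and Krt15 stood at -0.14 (SE 0.24, adjusted p 0.805 by edgeR) and -0.08 (SE 0.53, adjusted p 0.961). Trp63, the remaining tested basal marker, stood at 0.015 (SE 0.29, adjusted p 0.987 by edgeR), and Ltf at -0.006 (SE 0.19, adjusted p 0.992).

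**Figure D5:**
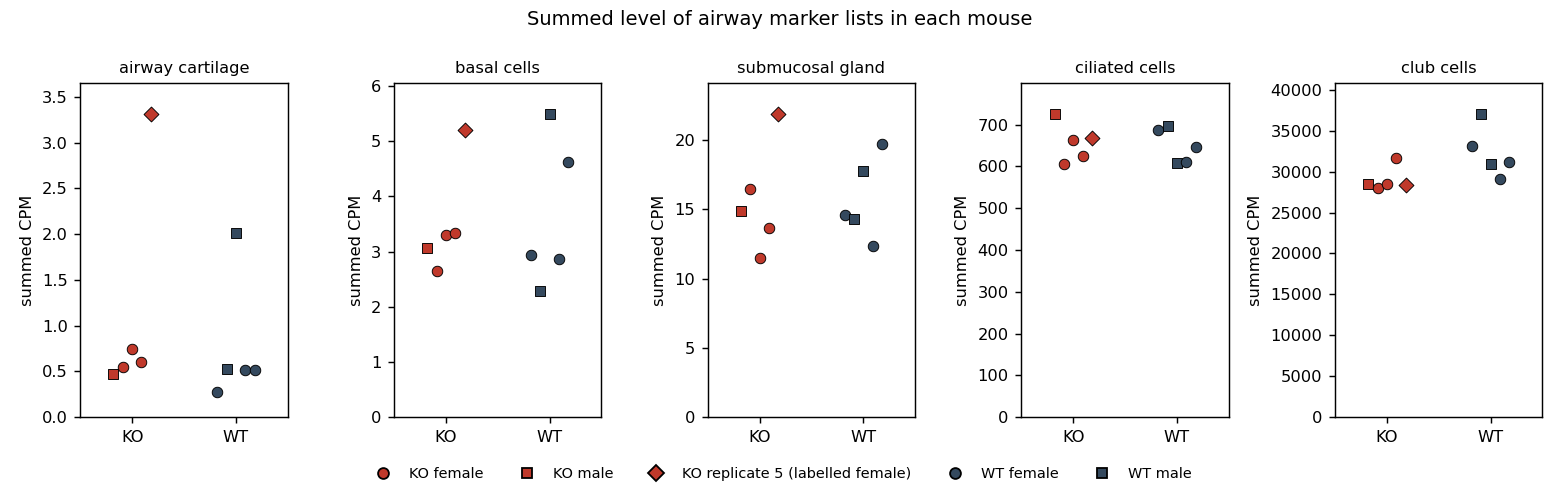
Summed CPM of 5 lists of airway markers in each mouse (squares for males, circles for females, a diamond for KO replicate 5). In the cartilage panel KO replicate 5 (3.31) and WT replicate 3 (2.01) lie apart from the other 8 mice, and in the remaining panels the genotypes overlap.

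Of 32 relations of the 8 tested genes with 4 of these lists (no cartilage gene reached a mean of 1 CPM), 3 had a permutation p under 0.05 and 0 passed the adjustment. For Agr2 with Ngfr, the only basal marker at this level, the values went in opposite directions (r -0.796, permutation p 0.00828, adjusted 0.209; rho -0.745, permutation p 0.0172, adjusted 0.276), with an r of -0.695 without WT replicates 1 and 2. Agr2 had 15 to 26 counts per mouse and Ngfr 27 to 66, so the values of both carry counting error. For Scgb3a1 with Ltf, an iron-binding protein of glands and neutrophils, they went in the same direction (r 0.75, permutation p 0.0131, adjusted 0.209; rho 0.77, permutation p 0.0128, adjusted 0.276), with an r of 0.507 without KO replicate 5 and WT replicate 5. Fcgbp had an r of 0.662 with Ltf (permutation p 0.0373, adjusted 0.398; rho 0.588, permutation p 0.0806, adjusted 0.516) and of 0.129 without those 2 mice.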

How the data were processed

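The authors deposited 1 table of estimated counts per gene, not scaled between samples. Per the submitters' processing notes, STAR 2.6.0 and Salmon 0.9.1 were used with mm10/GRCm38. Which annotation and filters were used is not given in the sources used here. Per the labels' protocols, libraries were stranded mRNA libraries read as single ends. A share of 30.1% of the values above 0 was not whole (tolerance 0.01), so a gene with a near copy can gain or lose counts.

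Identifiers were named from GENCODE M21 (GRCm38): 47281 matched and 52 did not (0.0067% of counts). Where 2 identifiers share a symbol (St6galnac2), the one with more exon sequence was used. Counts were rounded to whole numbers, and totals were 21357424 to 28321294 per mouse. CPM used totals scaled by TMM. KO and WT were compared by edgeR's quasi-likelihood test (edgeR 4.0.16, R 4.3.3, robust, sex as covariate, filterByExpr by genotype, minimum count 10, minimum total 15), with Benjamini-Hochberg adjustment over 18024 genes. SEs are the log2 fold change over the square root of F. An interaction of genotype and sex was not tested, with 1 KO male. Correlations used log2 CPM (prior count 2) with 100000 permutations, or exact enumeration below 10 mice or within genotypes (14400 arrangements). DESeq2 1.42.0 and limma 3.58.1 were alternatives. The scripts were tested on simulated counts.

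The members and lists were chosen with earlier results of these data known. Named were the 9 genes, Bpifb1 and Xist, of each other list the called genes or else the 2 with the smallest p, and the 3 genes most like each of Muc5b, Muc5ac, Clca1 and Scgb3a1, of which 1 gene for Clca1 is not reported here. Muc2, Acan, Ccdc39, Dynlrb2, Trp63, Il13, Itln1, Chil4, Tff1, Tff3, Epx, Siglecf, Il1rl1, Bpifb9b, Dcpp1 and Dcpp2 were named after their values were seen. The same holds for Hes1, Foxa2, Notch1, Notch2 and Jag2. The 7 promoter motifs and the fit without KO replicate 5 and WT replicate 3 were also chosen after seeing the data.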

Additional observations from a re-analysis of the deposited data

Results flagged for a closer look

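In 6 of 30 sets of 5 mice (9 genes and 6 marker sums in each genotype), 1 mouse stood so far from the others that Dixon's test at the 95% level singled it out (gap over range above 0.71). Chance gives about 1.5 of 30 if values follow a normal distribution. The test was run on CPM without a log, where a high value stands apart more easily, and each mouse singled out was the highest of its set. The excess over 1.5 can therefore not be read as a result.

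Muc5b in KO mice reached 128 CPM in replicate 5, against 41.7 to 64.3 CPM in the other 4 (gap over range 0.738). Clca1 in KO mice reached 24.2 CPM in the same mouse, against 0.882 to 6.03 CPM (0.779). That mouse also stood apart in the basal cell marker sum, at 5.21 CPM against 2.66 to 3.34 CPM (0.734), and in the cartilage marker sum, at 3.31 CPM against 0.472 to 0.743 CPM (0.905). Among WT mice, replicate 3 stood apart in the cartilage marker sum, at 2.01 CPM against 0.272 to 0.524 CPM (0.855). KO replicate 4 stood apart in the club cell marker sum, at 31600 CPM against 28050 to 28530 CPM (0.865).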

How the results depend on the processing

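No paired analysis was possible because replicates were numbered in accession order, which names mice and pairs none. Of the 8 tested genes 0 were called under each of the 18 alternatives for genotype and 16 for sex. The log2 fold changes of KO minus WT kept their direction in 131 fits and reversed in 13, and those of male minus female kept it in 123 and reversed in 5. The causes of the reversals were not tested. Without KO replicate 5, Muc5b was -0.14, Muc5ac -0.027 and Scgb3a1 -0.18. Without KO replicate 5 and WT replicate 3 together, Muc5b was -0.18, Muc5ac -0.089, Scgb3a1 -0.17 and Agr2 -0.029. Scgb3a1 was also -0.007 with no filter on low counts, -0.11 in females alone, -0.11 without KO replicate 1, -0.07 without WT replicate 2 and -0.16 without WT replicate 4, and ranged from -0.18 to 0.15 over mice left out. Tff2 was -0.023 without WT replicate 4. Leaving out each mouse gave -0.14 to 0.28 for Muc5b, -0.027 to 0.44 for Muc5ac, 1.34 to 2.81 for Clca1, -0.023 to 0.57 for Tff2 and 0.028 to 0.25 for Agr2. For male minus female, Muc5b was 0.029 without KO replicate 5 (range -0.24 to 0.029), Tff2 0.10 without WT replicate 1 (-0.39 to 0.10), Scgb3a1 0.019 without WT replicate 2 (-0.29 to 0.019), and Agr2 0.05 without WT replicate 1 and 0.11 without WT replicate 3 (-0.22 to 0.11).

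Over all genes, the 4 called between genotypes became 50 with no filter, 346 by DESeq2, 2 by limma-voom and 2 without KO replicate 5 and WT replicate 3 together. Leaving out 1 mouse gave 2 (KO replicate 2, 4 or 5, or WT replicate 1) to 18 (WT replicate 3). The 105 called by sex became 197 with no filter, 436 by DESeq2 and 41 without the genotype covariate. Leaving out 1 mouse gave 0 (without KO replicate 1, the only KO male, with 1919 at an unadjusted p under 0.05) to 195 (WT replicate 4). It gave 46 without KO replicate 2 and 43 without WT replicate 2. Without KO replicate 1 the fit held 2 males, both WT, so its 0 cannot be read as an absence of differences by sex. Pairs of genes that passed numbered 0, or 1 without KO replicate 4, and relations with marker lists 0 throughout. Agr2 and Foxa3, at 15 to 26 and 2 to 15 counts per mouse, are limited by depth.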

Other observations

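Of the 14 genes known to rise with goblet cells in allergic airways, 5 did not pass the filter on low counts, while the 9 that did ran up to Postn, with means of 304 CPM (KO) and 259 CPM (WT). Tff1 and Tff3, trefoil peptides, had 0 counts in the 10 mice. Il13, the cytokine that drives mucous metaplasia, had 0 to 2 counts per mouse, and Itln1, an intelectin of goblet cells, had 0 to 3. Chil4, a chitinase-like protein, had 21 counts in KO replicate 5, the mouse with the most Clca1, and 1 to 7 counts in the other 9.

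The 7 markers of eosinophils and group 2 lymphoid cells summed to 33.7 to 44.4 CPM in KO and 35.3 to 41.2 CPM in WT mice (exact permutation p 0.754, two-sided, and 0.9921 adjusted over 6 lists). Of these, Ccr3, the eotaxin receptor of eosinophils, stood at 2.81 ± 1.03 CPM in KO and 1.80 ± 0.451 CPM in WT (SD, n = 5 each), a fitted log2 difference of 0.51 (SE 0.21, adjusted p 0.249 by edgeR). Gata3, a factor of group 2 lymphoid cells, stood at 13.0 ± 1.65 CPM in KO and 14.2 ± 1.68 CPM in WT (SD, n = 5 each; log2 difference -0.16, SE 0.10, adjusted p 0.438 by edgeR). Epx, the eosinophil peroxidase, had 0 to 1 counts per mouse. Siglecf, at 16.3 ± 1.54 CPM in KO and 16.1 ± 0.86 CPM in WT (SD, n = 5 each), and Gata3 made up most of the summed CPM. The sum thus says little about the scarcer markers of the list, and its p is not a test of eosinophil numbers. Log2 differences were 0.015 for Siglecf (SE 0.08, adjusted p 0.944 by edgeR) and 0.11 for Il1rl1 (SE 0.14, adjusted p 0.722 by edgeR).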
